A study of Mus musculus with 2 samples.

Results

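The genes described here are 9 genes of the interferon response and of antigen presentation by MHC class I: *H2-K1*, *H2-D1*, *B2m*, *Tap1*, *Irf7*, *Ifit1*, *Ifit3*, *Isg15* and *Bst2*. They were chosen by name, with earlier results of these data known. All 9 were found in both libraries, among 23951 gene symbols present in both. RNA-seq was carried out on mouse optic nerve, a white matter tract that is being myelinated at postnatal day 12 (P12). The control library came from *Tcf7l2* c/+; Olig1-cre mice and the mutant library from *Tcf7l2* c/c; Olig1-cre mice, with 1 library per genotype and therefore no replicates, so no difference was tested and no p-value is given. Both genotypes carried the Cre driver and at least 1 floxed *Tcf7l2* allele, and neither received any treatment. Olig1-cre is used to delete genes in the oligodendrocyte lineage. In the mutant, called *Tcf7l2*ΔHMG in the study, the floxed part of *Tcf7l2* encodes the DNA-binding HMG box of this transcription factor of the Wnt pathway. The study's methods give a mixed strain background and both sexes for its mice. Neither is given for each library, so differences of sex or strain cannot be told apart from the genotype. The number of animals behind each library is not given in the sources used here.

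Interferons are secreted proteins that bind receptors on the same or on neighbouring cells and act through JAK kinases and transcription factors that include IRF9. These factors bind interferon-stimulated response elements in promoters and switch on a common group of genes, which include antiviral effectors such as *Ifit1*, *Isg15* and *Bst2* and the transcription factor *Irf7*. The same signals raise MHC class I, the cell surface complex of a heavy chain (*H2-K1* or *H2-D1* in the mouse) and β2-microglobulin (*B2m*), which presents peptides carried into the endoplasmic reticulum by the transporter of *Tap1* and *Tap2*. In the healthy nervous system, levels of these genes are low in most neural cells and higher in microglia, macrophages and vessels.

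Levels are given as FPKM, the fragments per kilobase of transcript, scaled to the mapped fragments of the library, which the authors computed with Cufflinks. Each FPKM comes with the interval that Cufflinks assigned to it, which covers the assignment and counting of fragments in that 1 library and not the variation between animals. The log2 ratio is that of mutant over control FPKM after 0.1 was added to both, which understates the change of low genes. Ratios were compared over 14199 genes whose rows were marked OK by Cufflinks in both tables and that reached 1 FPKM in at least 1 of them, and the cutoff was a fold of 1.5 (a log2 ratio of 0.585). The interval bounds of short rows gave a depth of 27622000 fragments for control nerve and 39938000 for mutant nerve, at which 3 fragments on 1 kb correspond to 0.109 and 0.0751 FPKM. *Tcf7l2* itself was at 17.8 FPKM in control nerve and 14.6 in mutant nerve (log2 ratio −0.28). This gene-level value does not check the deletion, because transcripts without the floxed part still count towards it.

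Mutant nerve gave the higher FPKM for each of the 9 genes, and 7 of them were past the cutoff (*Isg15*, *Irf7*, *B2m*, *Ifit1*, *Bst2*, *Ifit3* and *H2-K1*), while *H2-D1* and *Tap1* were higher by a fold below 1.5. Of all genes compared, 15.4% were higher past the same cutoff and 8.52% were lower past it. A fold above 2 was reached by 6 of the 9, against 6.87% of all genes compared. Counting only genes whose Cufflinks intervals in the control and the mutant did not overlap, 6 of the 9 were higher past the cutoff, against 13.6% of all genes compared. The median log2 ratio of the 9 genes was 1.51 (a fold of 2.86), and that of all genes compared was 0.047, with the 5th and 95th percentiles at −0.83 and 1.18. When all rows, those without a gene name included, were rescaled to a common sum in each library, the median of all genes moved to −0.63, *H2-D1* (−0.16) and *Tap1* (−0.22) turned lower in the mutant, and 6 of the 9 genes were higher past the cutoff, against 3.67% of all genes. In RNA from whole tissue, more cells of a type and more RNA per cell cannot be told apart.

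**Figure D1:**
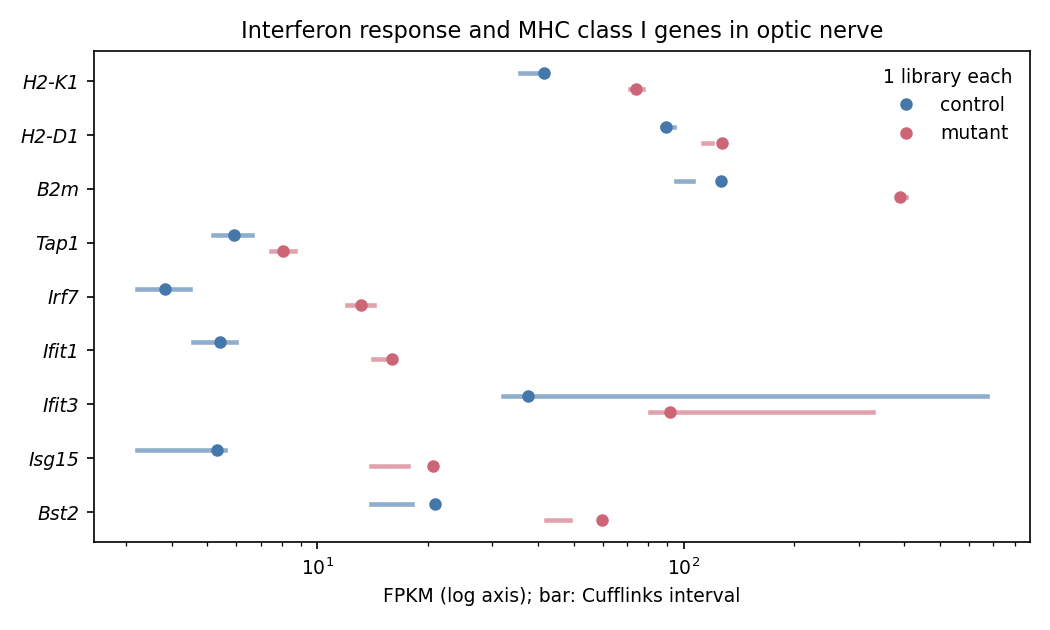
FPKM of the 9 genes in the control (blue) and mutant (red) library, on a log axis. Points are the FPKM of 1 library each and bars the Cufflinks interval; every mutant point lies to the right of its control point, the intervals of *Ifit3* overlap, and points of *H2-K1*, *H2-D1*, *B2m*, *Isg15* and *Bst2* lie outside their own bar in at least 1 library.

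*Irf7* encodes the transcription factor that amplifies production of type I interferons once a response has begun. It was at 3.85 FPKM in the control library (interval 3.21 to 4.48) and at 13.1 in the mutant (12.05 to 14.2), a log2 ratio of 1.75 or a fold of 3.36. The intervals lay apart, and their nearest bounds still differed by a fold of 2.65. Only 2.71% of the genes compared had a higher ratio. The gene lay at chr7:148449025-148452352 in the control table (mm9, the genome build named in the submitters' processing notes).

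Among the effectors, *Isg15*, a ubiquitin-like protein that is attached to other proteins during the response, had the highest ratio of the 9 genes. It was at 5.33 FPKM in control nerve (3.21 to 5.60) and at 20.7 in mutant nerve (14.0 to 17.7), a log2 ratio of 1.94 or a fold of 3.83, and lay at chr4:155573533-155574927 (mm9). The mutant FPKM of *Isg15* was above its own interval, and the nearest bounds of the 2 intervals differed by a fold of 2.47. *Ifit1*, which binds viral RNA that lacks the host's cap marks, was at 5.42 FPKM in control nerve (4.58 to 5.98) and 16.0 in mutant nerve (14.2 to 16.1), a log2 ratio of 1.55 or a fold of 2.92, at chr19:34715379-34724499 (mm9). *Bst2*, also called tetherin, holds budding virus particles at the cell surface. It was at 20.9 FPKM in control nerve (14.0 to 18.1) and 60.0 in mutant nerve (42.1 to 48.9), a log2 ratio of 1.51 or a fold of 2.86, at chr8:74058161-74061336 (mm9). Both *Bst2* values lay above their own interval, and the intervals of the libraries were apart.

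*Ifit3*, a close relative of *Ifit1* in the same gene cluster, was the least certain of the effectors. It was at 37.5 FPKM in control nerve (32.0 to 673.3) and at 91.8 in mutant nerve (80.7 to 328.7), a log2 ratio of 1.29 or a fold of 2.45. The intervals overlapped widely, and with the midpoint of each interval in place of the FPKM the log2 ratio was −0.78, that is, lower in the mutant. The row (chr19:34658019-34687891, mm9) was shared with the paralogue *I830012O16Rik* in both libraries, so the value belongs to both genes together.

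*B2m*, the invariant light chain of every class I molecule, had the highest FPKM of the 9 genes in both libraries. It was at 126.5 FPKM in control nerve (95.02 to 105.8) and 388.9 in mutant nerve (381.1 to 403.3), a log2 ratio of 1.62 or a fold of 3.07, at chr2:121973423-121978818 (mm9). The control FPKM was above its own interval, and 2.97% of the genes compared had a higher ratio than *B2m*. The ratio of the light chain was thus above that of either heavy chain described next.

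*H2-K1*, a classical heavy chain, was at 41.5 FPKM in control nerve (35.6 to 40.5) and at 73.9 in mutant nerve (71.3 to 77.3), a log2 ratio of 0.83 or a fold of 1.78, which was 0.16 and short of the cutoff when all rows were rescaled. The control row also carried the symbol *H2-K2* and spanned chr17:34111604-34137278, whereas the mutant row held *H2-K1* alone at chr17:34132957-34137278 (mm9). *H2-D1*, the other classical heavy chain, was at 89.4 FPKM in control nerve (87.0 to 94.1) and at 127.1 in mutant nerve (112.6 to 119.5), a log2 ratio of 0.51 or a fold of 1.42. Its row at chr17:35400039-35611508 (mm9) joined 9 class I symbols in control nerve and 5 in mutant nerve, so part of what was counted with *H2-D1* in the control was listed in rows of other genes in the mutant. When all rows that shared a symbol in either library were added together, the group of *H2-D1* was at 89.4 FPKM in control nerve and 142.1 in mutant nerve, a log2 ratio of 0.67 or a fold of 1.59, which is past the cutoff, while with all rows rescaled *H2-D1* was lower in the mutant (−0.16). On that grouping 8 of the 9 genes were higher past the cutoff, against 14.7% of all 13578 row groups. Class I heavy chains are close copies of each other, and how fragments that match several of them were assigned cannot be read from the tables.

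*Tap1*, a subunit of the transporter that moves peptides into the endoplasmic reticulum, had the smallest ratio of the 9 genes. It was at 5.91 FPKM in control nerve (5.20 to 6.61) and at 8.06 in mutant nerve (7.45 to 8.69), a log2 ratio of 0.44 or a fold of 1.36, at chr17:34324501-34334170 (mm9). Its intervals did not overlap, but their nearest bounds differed by a fold of only 1.13, and 21.1% of the genes compared had a higher ratio. With all rows rescaled the ratio was −0.22. *Tap1*, *H2-D1* and *H2-K1* thus lay within the 5th to 95th percentiles of all genes, and the other 6 above them.

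**Figure D2:**
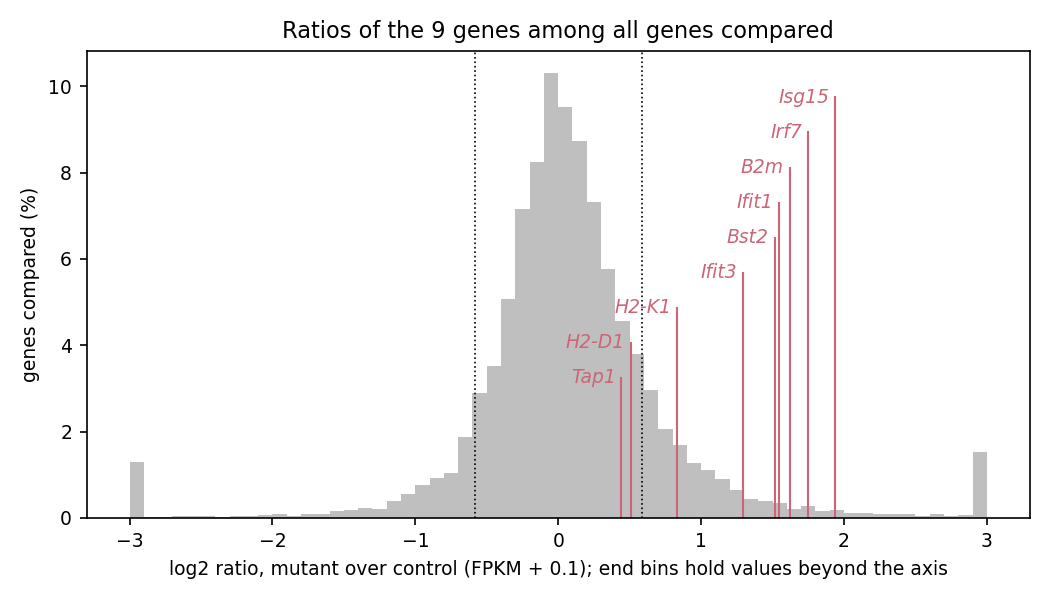
Histogram of the log2 ratio of mutant over control FPKM for all 14199 genes compared (grey, as a percentage per bin), with each of the 9 genes as a red line whose height has no meaning. Dotted lines mark a fold of 1.5 in either direction; *Tap1* (0.44) and *H2-D1* (0.51) lie inside them and *Isg15* (1.94) lies farthest right.

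The promoters of the 9 genes were read to see which of them share the response element of the interferon pathway. The RefSeq sequences run from 250 bases before to 50 bases after each start site (build GRCm38.p6, which is not the build of the expression tables), and all 9 genes matched. Windows of another length and those of 1 chromosome were left out, and the 27025 genes searched are called all genes in the motif shares. The core searched, GAAANNGAA on either strand, was present in 5 of the 9 genes (*B2m*, *Ifit1*, *Ifit3*, *Isg15* and *Bst2*) and in 9.76% of the 27025 genes. It was present in 22 of 39 matched genes of the list of interferon-stimulated genes described below. The stretches around these matches are shown because each carries the core upstream of the start site, with the matches in capitals, 12 bases on either side, and overlapping matches as 1 run. They are printed in the direction of the gene, so a match on the opposite strand reads as TTCNNTTTC.
*B2m*, chr2:122147536-122147568, plus strand: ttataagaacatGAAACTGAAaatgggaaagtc
*Ifit1*, chr19:34640768-34640825, plus strand: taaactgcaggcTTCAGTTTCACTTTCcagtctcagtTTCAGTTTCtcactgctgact
*Ifit3*, chr19:34583362-34583447, plus strand: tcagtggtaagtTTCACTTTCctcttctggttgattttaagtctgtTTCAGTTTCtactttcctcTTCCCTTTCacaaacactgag
*Isg15*, chr4:156200864-156200908, minus strand: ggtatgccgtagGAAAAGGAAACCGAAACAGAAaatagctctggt
*Bst2*, chr8:71537576-71537614, minus strand: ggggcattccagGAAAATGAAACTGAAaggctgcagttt

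The promoters of *Ifit1*, *Ifit3* and *Isg15* held 3 matches each, that of *Bst2* held 2 and that of *B2m* held 1. In *Isg15* all 3 matches overlapped in a single run, and in *Bst2* both did. The matches of *Ifit1* and *Ifit3* were on the strand opposite to the gene and those of the other 3 genes on the same strand. These 5 genes were all higher past the cutoff, as were *Irf7* and *H2-K1*, whose windows lacked this core. A match is a stretch of letters in a window and does not show that a factor binds there.

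The heavy chains had a different upstream sequence in common. In the windows of *H2-K1* and *H2-D1*, stretches of 74 bases were identical at 73 positions, beginning with a shared run of 47 bases. The 2 stretches are shown because they start with the longest run shared upstream of both genes. The ratios of *H2-K1* and *H2-D1* (0.83 and 0.51) came from rows joined differently in the 2 libraries. With rows that shared a symbol grouped they were 0.83 and 0.67. The capitals mark GGGATTCCC and, on the opposite strand, GAANNGAAA, which reads as TTTCNNTTC and is the response element core with its longer side second. Both motifs were added after the promoters had been read.
*H2-K1*, chr17:34000415-34000488, minus strand: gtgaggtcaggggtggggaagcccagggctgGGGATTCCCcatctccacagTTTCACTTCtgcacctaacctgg
*H2-D1*, chr17:35262893-35262966, plus strand: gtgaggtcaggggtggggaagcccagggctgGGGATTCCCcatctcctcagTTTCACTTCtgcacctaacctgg

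GGGATTCCC, searched on both strands, was present in these 2 of the 9 genes and in 0.414% of all genes. It was present in 4 of the 13 matched genes of the list of class I heavy chains and *B2m*. GAANNGAAA was present in *H2-K1*, *H2-D1* and *Isg15*, in 8.68% of all genes and in 8 of the 13 genes of that list. Both motifs were picked after these promoters had been read, and *H2-K1* and *H2-D1* are in that list. The counts therefore do not measure enrichment. The gamma-activated site searched, TTCNNNGAA, was present in *Bst2* alone of the 9, where it overlapped the first match of the response element core, and in 9.55% of all genes. The TCF/LEF core CTTTGA, the letters that *Tcf7l2* and its relatives recognise, was present in *Isg15* alone of the 9 and in 18.2% of all genes. The windows of *Tap1* and *Irf7* held none of the 5 motifs.

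Other genes of the same pathways were read from lists chosen by function, with earlier results of these data known. The list counts are therefore a description and not an independent check. Of 54 type I interferon stimulated genes, 52 were compared, and 41 of them (78.8%) were higher past the cutoff and 0 lower, against 15.4% and 8.52% of all genes compared. The median log2 ratio of this list was 1.098. Without the 5 genes already described, 36 of 47 were higher past the cutoff, with a median of 1.08. With all rows rescaled, 18 of 47 genes of the list were higher past the cutoff, against 3.67% of all genes. The highest ratios were those of *Zbp1*, a sensor of nucleic acids (0.93 FPKM in control nerve and 5.08 in mutant nerve, log2 ratio 2.34), and of the oligoadenylate synthetase family members *Oasl2* (6.23 and 28.2 FPKM, 2.16) and *Oas1a* (0.91 and 4.34 FPKM, 2.14). At the other end, *Stat2*, a subunit of the complex that drives these genes, was at 14.4 FPKM in control nerve and 12.2 in mutant nerve (−0.24), and the antiviral GTPase *Mx2* at 7.31 and 6.46 FPKM (−0.18). *Ifi35* was listed at 0 in both libraries. The list thus lay higher in the mutant as the effectors did, with 11 genes short of the cutoff.

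Of the 20 genes compared from the list of class I heavy chains and *B2m*, 11 were higher and 4 lower past the cutoff. The shares of all genes compared were 15.4% and 8.52%. The median log2 ratio of the list was 0.60. The 4 lower genes (*H2-Q1*, *H2-Q2*, *H2-Q7* and *H2-Q9*) were all joined with *H2-D1* at 89.4 FPKM in the control and were listed in other rows in the mutant, between 1.74 and 8.01 FPKM, so their ratios compare different rows. Among the 11 genes whose rows carried the same symbols in both libraries, *B2m* included, 10 were higher past the cutoff and 0 lower, with a median of 1.07. These symbols are not all separate values, because *H2-T9* and *H2-T22* shared a row (1.07), as did *H2-Q6* and *H2-Q8* (0.60). The intervals of *H2-Q6*, *H2-Q8* and *H2-Bl* overlapped between the libraries. With all rows rescaled, 2 of 19 genes of the list were higher past the cutoff, against 3.67% of all genes. Nonclassical heavy chains led after *B2m*: *H2-T23*, which presents leader peptides of other class I chains to natural killer cells, was at 17.6 FPKM in control nerve and 43.1 in mutant nerve (log2 ratio 1.29). *H2-Q5* was at 1.57 and 3.78 FPKM (1.22), and *H2-T24* at 4.32 and 9.60 FPKM (1.14).

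The genes that make and load class I peptides had smaller ratios. Of 13 genes compared, 4 (30.8%) were higher past the cutoff and 0 lower, against 15.4% and 8.52% of all genes compared. The median log2 ratio was 0.32. The count was 2 when ratios were centred on the median of all genes, 1 at a fold above 2 and 0 with all rows rescaled. The shares of all genes in these settings were 13.8%, 6.87% and 3.67%. The immunoproteasome subunits *Psmb9* (3.25 FPKM in control nerve and 7.85 in mutant nerve, log2 ratio 1.25) and *Psmb8* (5.44 and 10.4 FPKM, 0.93) led this list. They were followed by the chaperone *Canx* (124.9 and 189.1 FPKM, 0.60) and the peptide editor *Tapbpl* (6.25 and 9.47 FPKM, 0.59). *Psmb10*, the other interferon-inducible proteasome subunit, was at 27.7 FPKM in control nerve and 22.6 in mutant nerve (−0.29), with overlapping intervals, and the oxidoreductase *Pdia3* was at 169.3 and 154.9 FPKM (−0.13). *Nlrc5*, the transactivator of class I genes, was at 0.28 and 0.88 FPKM, under the level needed to be compared. The ratio of *Tap1* (0.44) was thus above the median of the list it belongs to and short of the cutoff.

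Genes known for induction by interferon gamma, and MHC class II genes, were listed together. Of 18 compared, 14 (77.8%) were higher past the cutoff and 0 lower, against 15.4% and 8.52% of all genes compared. The median log2 ratio was 0.92. The count was 9 at a fold above 2 (6.87% of all genes), and 2 of 17 with all rows rescaled (3.67% of all genes). The guanylate-binding proteins *Gbp6* and *Gbp4* shared 1 row at 36.3 FPKM in the mutant, against separate rows of 6.13 and 10.6 FPKM in the control, so their ratios (2.55 and 1.77) compare different rows. *Tgtp1*, a GTPase of the same response that shares its row with *Tgtp2*, was at 0.60 FPKM in control nerve and 1.77 in mutant nerve (1.43), and the class II chain *H2-Eb1* at 6.35 and 14.8 FPKM (1.20). The 4 genes short of the cutoff were *H2-DMb1* (0.55), *H2-Ab1* (0.19), *H2-DMa* (−0.04) and *Gbp5* (−0.21), each with overlapping intervals. The list therefore held class II genes on either side of the cutoff.

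**Figure D3:**
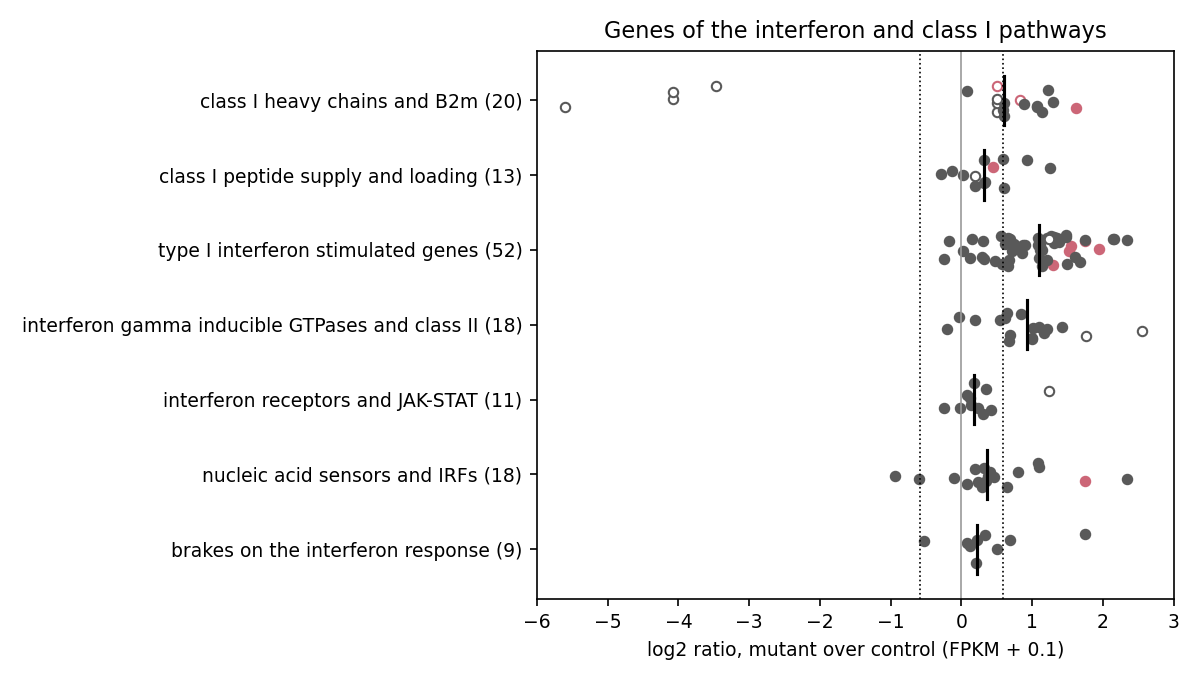
Log2 ratio of mutant over control FPKM for each gene compared, by pathway list, with the number of genes compared in parentheses. Red marks the genes of the set of 9, open circles genes whose row carried different symbols in the 2 libraries, black bars the list median and dotted lines a fold of 1.5; the lists of stimulated genes (medians 1.098 and 0.92) lie to the right of the list of receptors and JAK-STAT (0.18).

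The interferons themselves were at or near 0 in both libraries. Of 19 ligand genes, 15 were listed at 0 in both, *Ifng* among them, and none reached the level needed to be compared. *Ifnb1* was listed at 0 in the control and at 0.044 FPKM in the mutant, *Ifna13* at 0 and 0.041, *Ifnk* at 0 and 0.081, and *Ifnz* at 0.080 and 0.065. These values are near or below that of 3 fragments on 1 kb, so a difference in the ligands was not detectable at this depth.

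Receptors and signalling proteins were detected in both libraries, with small ratios. Of 11 genes compared, 1 (9.09%) was higher past the cutoff and 0 lower, against 15.4% and 8.52% of all genes compared. The median log2 ratio was 0.18. The type I receptor chain *Ifnar1* was at 16.3 FPKM in control nerve and 17.2 in mutant nerve (0.08), and *Ifnar2* at 23.8 and 30.1 FPKM (0.34). The interferon gamma receptor chains *Ifngr1* and *Ifngr2* had ratios of 0.14 and 0.12, the kinases *Jak1*, *Tyk2* and *Jak2* of 0.18, 0.23 and −0.02, and *Il10rb*, a chain of the interferon lambda receptor, of 0.42. *Irf9*, a DNA-binding factor of this pathway, was the 1 gene past the cutoff, at 8.51 and 20.2 FPKM (1.23), but its row was joined with *Rnf31* in the mutant library alone, so the mutant value belongs to both genes, while *Rnf31* had a row of its own at 6.13 FPKM in control nerve. With rows that share a symbol grouped, with joined rows left out, or with all rows rescaled, 0 genes of the list were higher past the cutoff. The shares of all genes were then 14.8%, 14.7% and 3.67%. *Stat2* and *Irf9* are also counted in the list of stimulated genes.

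Of 18 nucleic acid sensors and interferon regulatory factors compared, 6 (33.3%) were higher and 2 lower past the cutoff. The shares of all genes compared were 15.4% and 8.52%. The median log2 ratio of the list was 0.36. With all rows rescaled, 2 of the 18 were higher past the cutoff, against 3.67% of all genes. *Zbp1* and *Irf7*, given above, led the list, and the RNA helicases *Dhx58* (1.92 FPKM in control nerve and 4.19 in mutant nerve) and *Ifih1* (1.25 and 2.76) both had a ratio of 1.09. The 2 lower genes were the kinases that activate interferon regulatory factors: *Tbk1* was at 19.9 FPKM in control nerve and 10.3 in mutant nerve (−0.94), and *Ikbke* at 6.46 and 4.23 FPKM (−0.60). Of the 6 higher genes, all but *Irf1* are also in the list of stimulated genes.

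Of 9 brakes on the response, 2 (22.2%) were higher past the cutoff and 0 lower, against 15.4% and 8.52% of all genes compared. The median log2 ratio was 0.23. The count was 1 with all rows rescaled (3.67% of all genes), at a fold above 2 (6.87%) or with intervals apart (13.6%). *Usp18*, the protease that removes ISG15 from proteins and blocks the type I receptor, was at 3.51 FPKM in control nerve and 12.03 in mutant nerve (1.75). *Socs1*, an inhibitor of JAK kinases, was at 1.35 and 2.24 FPKM (0.69), with overlapping intervals. *Pias1* had a ratio of 0.51 and *Samhd1* of 0.33, both short of the cutoff. *Irf2* was at 8.91 and 9.39 FPKM (0.08), and *Trex1*, the exonuclease that clears cytosolic DNA and here shares a row with *Atrip*, at 10.4 and 7.15 FPKM (−0.53).

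Markers of cell types were read in the same libraries, because levels in whole nerve also depend on which cells it holds. For scale, 15.4% of all genes compared were higher past the cutoff and 8.52% lower. Myelinating oligodendrocyte markers defined the tissue and were lower in the mutant: 8 of 10 were lower past the cutoff, with a median log2 ratio of −1.07, from −2.04 (*Mobp*) to −0.36 (*Aspa*), and their summed level was 15021 FPKM in control nerve and 6651 in mutant nerve. Of 6 oligodendrocyte precursor markers, 2 had a higher FPKM in the mutant, with the highest ratio that of *Ptprz1* (0.36). Only *Gpr17* was lower past the cutoff (235.0 FPKM in control nerve and 155.8 in mutant nerve, −0.59). The sums were 402.9 and 337.8 FPKM, and that of the mutant was lower only with *Gpr17* counted. Of 8 astrocyte markers, 1 was higher past the cutoff (*Gja1*, 0.68) and *Aqp4* was lowest (−0.29), with sums of 5447 and 6428 FPKM.

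Immune, border and vascular cells were read next, beside the same shares of all genes (15.4% higher and 8.52% lower past the cutoff). Of 11 microglia markers, 0 were past the cutoff in either direction. Their median log2 ratio was 0.17, from −0.41 (*Aif1*) to 0.58 (*C1qb*), and their sum was 418.6 FPKM in control nerve and 517.1 in mutant nerve. Border macrophage markers were higher, with 3 of 5 past the cutoff (*F13a1*, 0.82; *Mrc1*, 0.68; *Lyve1*, 0.64), *Pf4* lowest at 0.29, and sums of 50.01 and 74.6 FPKM. Of 7 meningeal fibroblast markers, 3 were higher past the cutoff, from *Igf2* (0.88) down to *Pdgfra* (−0.09) over the list, with sums of 1570 and 2504 FPKM. Of 7 endothelial markers, 1 was higher (*Cdh5*, 0.59) and 2 were lower past the cutoff, *Slco1c1* lowest (−0.83), with sums of 162.0 and 129.7 FPKM. Of 6 pericyte and smooth muscle markers, 4 had a higher FPKM in the mutant. *Tagln* was listed at 0 in the control and at 35.3 FPKM in the mutant, and *Rgs5* was lower past the cutoff (−0.64). The sums were 102.8 and 122.9 FPKM, and that of the mutant was higher only with *Tagln* counted. The part of microglia, macrophages, fibroblasts and vessels in the differences of the 9 genes was not tested.

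Blood cells were also read, again beside 15.4% of all genes higher and 8.52% lower past the cutoff. Neutrophil and monocyte markers were low, with sums of 7.09 FPKM in control nerve and 16.0 in mutant nerve, and 4 of 5 compared were higher past the cutoff, from *S100a9* (0.23 and 4.42 FPKM, log2 ratio 3.78) to *Ly6c2* short of it (0.02), while *Elane* was listed at 0 in control nerve. All 5 red blood cell markers compared were higher past the cutoff, from *Alas2* (1.08) to *Hba-a1* and *Hba-a2*, which share a row (1.36), with sums of 163.0 and 403.2 FPKM over distinct rows. T and NK cell markers summed to 1.99 FPKM in control nerve and 4.30 in mutant nerve over the 9 found of 10, of which *Cd4* alone was compared (0.28 and 1.19 FPKM, 1.78). B cell markers summed to 1.46 and 2.18 FPKM over the 4 found of 5, of which *Cd79a* alone was compared (0.61 and 1.09 FPKM, 0.74). Dendritic cell markers summed to 8.44 and 7.76 FPKM, with *Zbtb46* highest (0.41) and *Siglech* lowest (−0.41) of the 2 compared. Red blood cell and neutrophil markers thus differed between the libraries in the same direction as the 9 genes, and their part in those differences was not tested.

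**Figure D4:**
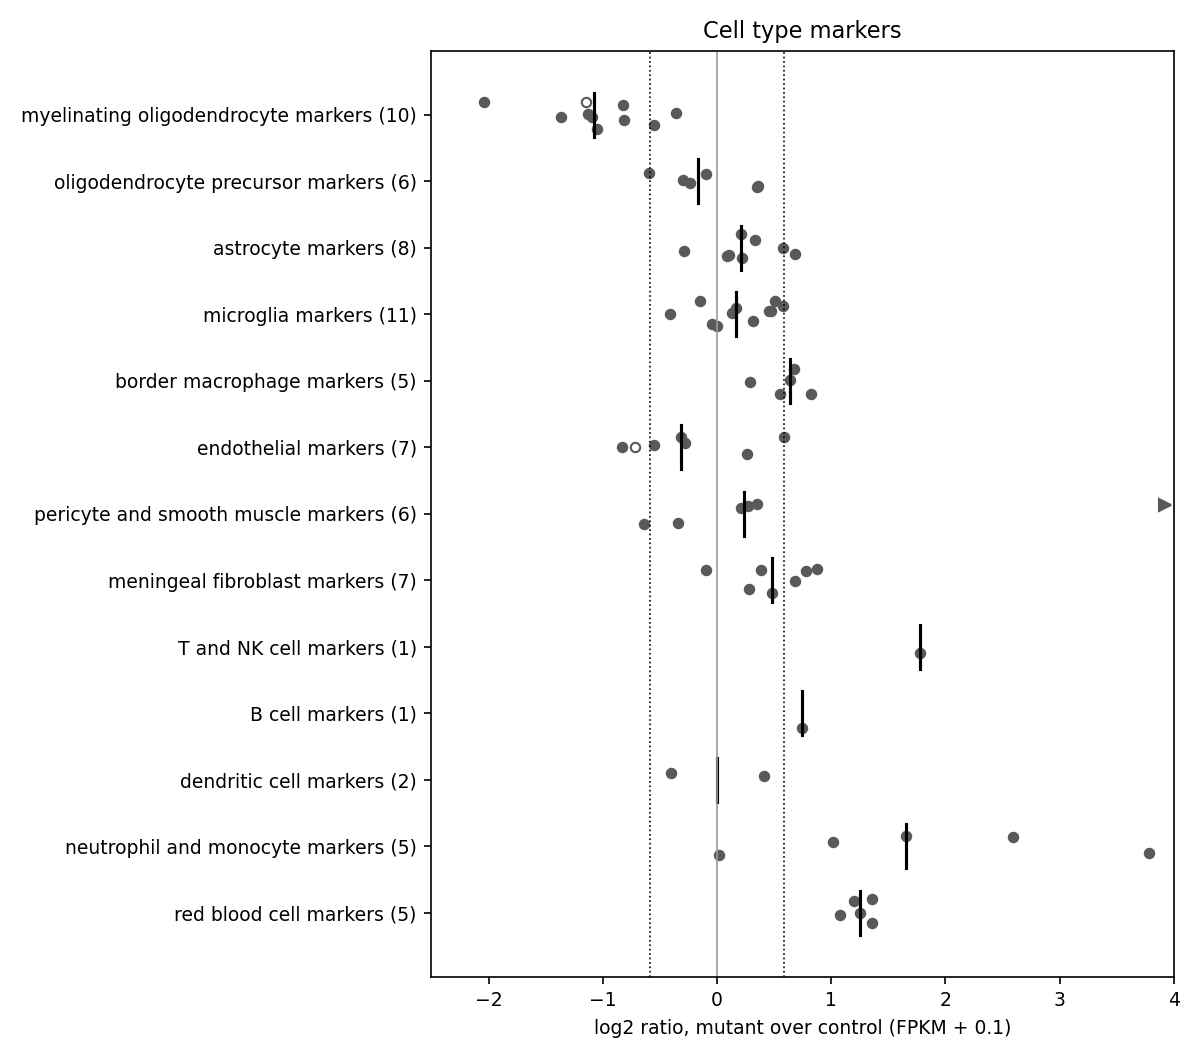
Log2 ratio of mutant over control FPKM for each cell type marker compared, by list, with the number compared in parentheses. Black bars are list medians, open circles genes whose row carried different symbols in the 2 libraries, dotted lines a fold of 1.5 and the arrowhead *Tagln*, which was listed at 0 in the control and lies beyond the axis; oligodendrocyte markers lie to the left (median −1.07), microglia markers near 0 (0.17) and red blood cell markers to the right (1.25).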

How the data were processed

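RNA was isolated with trizol from P12 optic nerves, and the libraries were sequenced on an Illumina HiSeq instrument. Per the labels and the study's methods, the authors mapped reads with TopHat at default settings to mm9 and computed the deposited FPKM with Cufflinks, whose versions are not given in the sources used here, nor is whether the libraries marked strand. Each table held 1 library, with its own assembled unnamed rows, which took 70.7% (control) and 80.7% (mutant) of the summed FPKM. Groups were taken from the genotype labels. The driver is given as in the labels, Olig1-cre, which is also the driver in the study's results; a genotype in its methods has CNP-Cre.

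Symbols joined in a row were split at commas and FPKM summed per symbol. Of the genes compared, 1079 symbols shared a row. With 1 library per group, no test was run. Folds against 0 were not given. Depth was read from interval bounds of unnamed rows under 100 bases. The smallest depth was found at which nearly all bounds fell within 0.05 of a whole number of fragments. The best fit at or just above it was taken (99.7% and 100% of bounds). Positions start from 1. Marker lists, pathway lists and the 9 genes were chosen with earlier results of these data known. Named were the 9 genes, up to 4 highest and 2 lowest of each pathway list, receptor and signalling genes, the highest and lowest marker of each list, and, once their values were seen, genes of small counts. A gene covered by this rule is not reported here. The computation was tested on simulated data. Scripts ran under Python 3.11.15 (pandas 2.3.3, numpy 2.4.6, matplotlib 3.10.9).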

Additional observations from a re-analysis of the deposited data

How the results depend on the processing

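For the 9 genes, 16 alternatives were run: other pseudocounts, filters and scalings, rows of any status, the highest row per symbol, joined rows left out, a fold above 2, intervals apart and, chosen after seeing the data, interval midpoints and grouped rows. Between 5 and 8 genes were higher past the cutoff (5 of the 6 left when joined rows were dropped, 8 with grouped rows). Rescaling all rows, unnamed included, to a common sum moved the median of all genes to −0.63. The median of the 9 genes was then 0.84, so that it lay 1.47 above all genes in both cases, and 6 were higher past the cutoff against 3.67% of genes, but *H2-K1* (0.16) was no longer among them and *H2-D1* (−0.16) and *Tap1* (−0.22) turned lower. With interval midpoints *Ifit3* turned lower (−0.78), which gave 1 gene lower past the cutoff. The list of stimulated genes had 41 of 52 genes higher past the cutoff in the main setting. It had 18 of 47 with all rows rescaled, 23 of 33 with an FPKM of at least 5, and 29 to 41 genes otherwise. The class I heavy chain list ranged from 2 under that rescaling to 19 with grouped rows. The 19 are not separate values, because every gene joined with *H2-D1* in the control then carried its grouped ratio of 0.67. With all rows rescaled, the interferon gamma and class II list fell from 14 to 2, the peptide loading list from 4 to 0 and the sensors from 6 to 2. The receptors fell from 1 to 0 and the brakes from 2 to 1 under the same rescaling. GAANNGAAA, added after the promoters were read, was found in 3 of the 9 genes in place of 5 for the core. How far animals of a genotype differ from each other cannot be read from these 2 libraries.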

Other observations

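Genes near the 9 loci were read as a description chosen after the data had been seen. Distances were taken from the control row of each gene, and those of *H2-D1* and *H2-K1* also span other class I genes. A gene counted here can therefore lie farther than 100 kb from *H2-D1* itself. Within 100 kb of such a row, 50 genes that belong to none of the lists and were alone in their row in both libraries were compared. Of these, 7 were higher past the cutoff (14.0%) and 5 lower, with a median log2 ratio of 0.08, against 15.4% higher and a median of 0.047 over all genes compared. *Lst1*, a gene of leukocytes near *H2-D1*, was at 5.29 FPKM in control nerve and 16.1 in mutant nerve (log2 ratio 1.58).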
